A study of Ovis aries with 115 samples.

Results

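The comparison set cervical RNA of 2 Norwegian sheep breeds against that of the Irish Belclare breed in the luteal phase of a synchronised oestrous cycle. Its members were the 27 libraries labelled Belclare (10 ewes), FUR (9 ewes) or Norwegian (8 ewes) with an induced cycle and the luteal phase, of 115 libraries in the series. Each library came from a different ewe according to the labels. FUR is the Norwegian Fur breed, and the label Norwegian is that of the Norwegian White Sheep. The cycle was induced with a progestagen sponge and equine chorionic gonadotrophin in all 3 groups, and the mid-cervix was collected post mortem from multiparous ewes. The hour or day of the luteal collection is not given in the sources used here. Belclare ewes were kept in Ireland and the other 2 breeds in Norway, so in any contrast with Belclare the breed cannot be told apart from the country. The study asked how the cervix differs between breeds that conceive at different rates after cervical insemination with frozen-thawed semen, and Belclare is the breed it describes as of medium fertility.

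The cervix is a muscular and collagen-rich canal lined by mucus-secreting epithelium. In the luteal phase progesterone keeps the canal closed and the mucus thick, whereas around oestrus the wall softens and the mucus becomes thin. Smooth muscle, fibroblasts, secretory and ciliated epithelium, blood vessels and resident immune cells all add RNA to such a sample. The libraries are bulk tissue, so fewer cells of a type and less RNA per cell cannot be told apart.

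Levels are given in CPM (read counts scaled to the normalised library size), as the lowest, the median and the highest ewe of a breed. Total counts per ewe were 14783760 to 20570024 in Belclare, 14432065 to 19279616 in FUR and 13758675 to 19143889 in Norwegian. The oestrogen-induced gene GREB1 was checked against the phase labels, and over the 3 breeds it was lower in the luteal than in the synchronised follicular phase by a log2 fold change of -3.45 (SE 0.24, adjusted p = 7.43e-17, edgeR quasi-likelihood test). FKBP5, which glucocorticoids and progesterone induce, was not called in the same test (log2 fold change 0.24, SE 0.13, adjusted p = 0.105). A pair of libraries stood apart. Belclare ewe 7 gave 19.6% of its counts to its 10 most abundant genes, against 4.52% to 8.50% in the other 26 libraries, and held the highest immunoglobulin counts. FUR ewe 8 held the highest muscle gene levels. For genes given with values below, fits without these ewes are also reported where a call was lost or the fold change moved by over 1.5-fold.

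With a differentially expressed gene (DEG) defined by an adjusted p under 0.05 and a fold change above 1.5, the mean of the 2 Norwegian breeds differed from Belclare in 2380 of 14805 genes tested (16.1%). Of these, 1327 were higher (8.96%) and 1053 were lower (7.11%) in the Norwegian breeds. Without Belclare ewe 7 and FUR ewe 8 there were 2279 DEGs. No ewe of a Norwegian breed overlapped with any Belclare ewe in 99 genes that were higher (0.669%) and 52 that were lower (0.351%), together 1.02% of the genes tested. The plot of fold changes against p shows both directions.

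**Figure D1:**
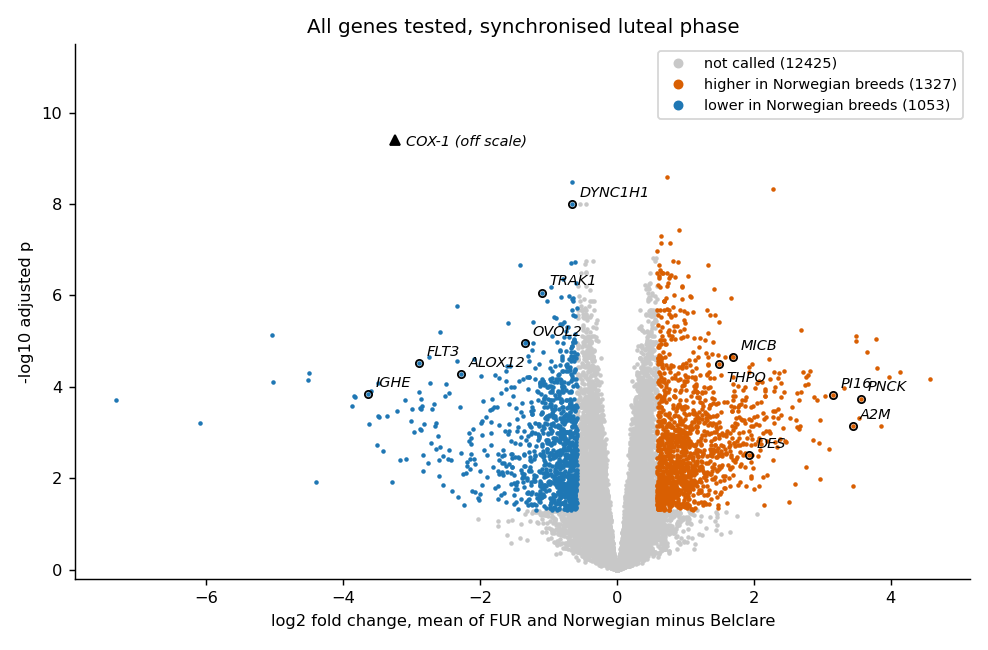
Each point is 1 of 14805 genes, placed by the log2 fold change of the mean of FUR and Norwegian minus Belclare (x axis) and by -log10 of the adjusted p (y axis) at the synchronised luteal phase. The 1327 genes in orange were higher and the 1053 in blue lower in the Norwegian breeds; COX-1 lies above the axis range, with an adjusted p of 1.18e-19.

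Gene names were at hand for 1290 of the genes tested. Nearly all of these names come from a list of genes lower in Fur than in Suffolk cervix at the synchronised follicular phase, so the named genes lean towards lower levels in FUR from the start. Among them 42 were higher (3.26%) and 379 were lower (29.4%), with a median log2 fold change of -0.43, whereas the median over all genes was -0.01. Counts within gene lists are therefore read against these shares of the named genes, and no list is independent evidence of its direction.

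Of 13 genes of smooth muscle contraction tested, 6 rose (46.2%) and 1 fell (7.69%), against 8.96% and 7.11% of all genes, and the median log2 fold change was 0.64. The members that rose were ACTG2, DES, ASB2, PCP4, POPDC2 and PNCK, and the one that fell was MYLK3, a kinase of the myosin light chain kinase family (log2 fold change -0.64, SE 0.24, adjusted p = 0.0328), whose call was lost without any 1 of Belclare ewes 2, 3, 5 or 6 (adjusted p 0.0531 to 0.0802). All 6 that rose have a name only because the study singled them out as much higher in Fur or Norwegian White Sheep than in Suffolk at the synchronised follicular phase, so their share is set by that choice and is no result about muscle genes. ACTC1 was not tested because of low counts. The summed level of the 13 genes was 333.0 to 2455 CPM in Belclare, 750.5 to 9635 in FUR and 1085 to 4044 in Norwegian ewes, so the ranges overlapped.

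ACTG2 encodes the gamma actin of smooth muscle. It was at 20.1, 181 and 604 CPM in Belclare (lowest, median and highest ewe), 179, 698 and 2218 in FUR and 253, 703 and 956 in Norwegian ewes. Of 17 Norwegian-breed ewes, 10 lay above every Belclare ewe, and the medians of FUR and Norwegian were almost the same. The log2 fold change was 1.76 (SE 0.46, adjusted p = 0.0034), or 3.38-fold. DES encodes desmin, the intermediate filament that ties the contractile units of muscle cells together. Its level was 58.3, 331 and 1614 CPM in Belclare, 396, 1678 and 7065 in FUR and 656, 1654 and 2915 in Norwegian ewes. The groups overlapped in the same way, with 10 ewes above all Belclare, and the log2 fold change was 1.93 (SE 0.50, adjusted p = 0.00313).

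ASB2 encodes the substrate-binding part of a ubiquitin ligase that acts on filamins. It was at 1.48, 5.47 and 22 CPM in Belclare, 7.50, 33.1 and 144 in FUR and 12.7, 35.9 and 47.7 in Norwegian ewes. Here 12 of 17 ewes lay above every Belclare ewe, and the log2 fold change was 2.29 (SE 0.49, adjusted p = 0.000621). POPDC2, a cAMP-binding membrane protein of muscle, was at 0, 0.384 and 3.06 CPM in Belclare, 0.676, 4.08 and 10.3 in FUR and 0.808, 3.52 and 8.96 in Norwegian ewes. Its log2 fold change was 2.63 (SE 0.57, adjusted p = 0.000774), and 11 ewes lay above every Belclare ewe.

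PCP4 and PNCK belong to calmodulin signalling, the calcium switch that also starts smooth muscle contraction. PCP4, a small regulator of calmodulin, was at 0.188, 1.09 and 15.0 CPM in Belclare, 5.23, 21.1 and 45.2 in FUR and 6.82, 15.3 and 38.5 in Norwegian ewes. The highest Belclare ewe reached the lower part of both Norwegian breeds, and the log2 fold change was 2.45 (SE 0.58, adjusted p = 0.0015). PNCK, a calmodulin-dependent kinase, was near the detection floor in Belclare (0, 0.185 and 1.70 CPM) and reached 0.123, 3.29 and 16.1 CPM in FUR and 0.862, 3.32 and 7.71 in Norwegian ewes. With 13 of 17 ewes above every Belclare ewe, its log2 fold change was 3.56 (SE 0.66, adjusted p = 0.000182), or 11.8-fold.

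Belclare ewe 9 was the highest of its breed in all 6 of these genes. Without it the log2 fold change of PNCK was 4.29, that of POPDC2 3.36 and that of PCP4 3.09. Leaving out FUR ewe 8 instead gave smaller values, 3.34 for PNCK, 2.045 for ASB2, 1.70 for DES and 1.61 for ACTG2, and these calls remained. Muscle gene RNA varied strongly within Belclare: averaged over ACTG2 and DES, log2 CPM was 5.23, 7.85 and 10.1 there (lowest, median and highest), 8.18, 10.2 and 12.0 in FUR and 8.82, 10.2 and 10.8 in Norwegian ewes. When this value was added to the model as a covariate, the number of DEGs between the Norwegian breeds and Belclare was 460, of which 311 were among the 2380. Since the covariate itself differs between the breeds, this fit removes part of any breed difference along with the variation in muscle gene RNA. In it 26 of 90 called genes followed up one by one kept their call, among them MICB, THPO, NREP, COX-1, DYNC1H1, OVOL2, GJB2 and VWF.

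**Figure D2:**
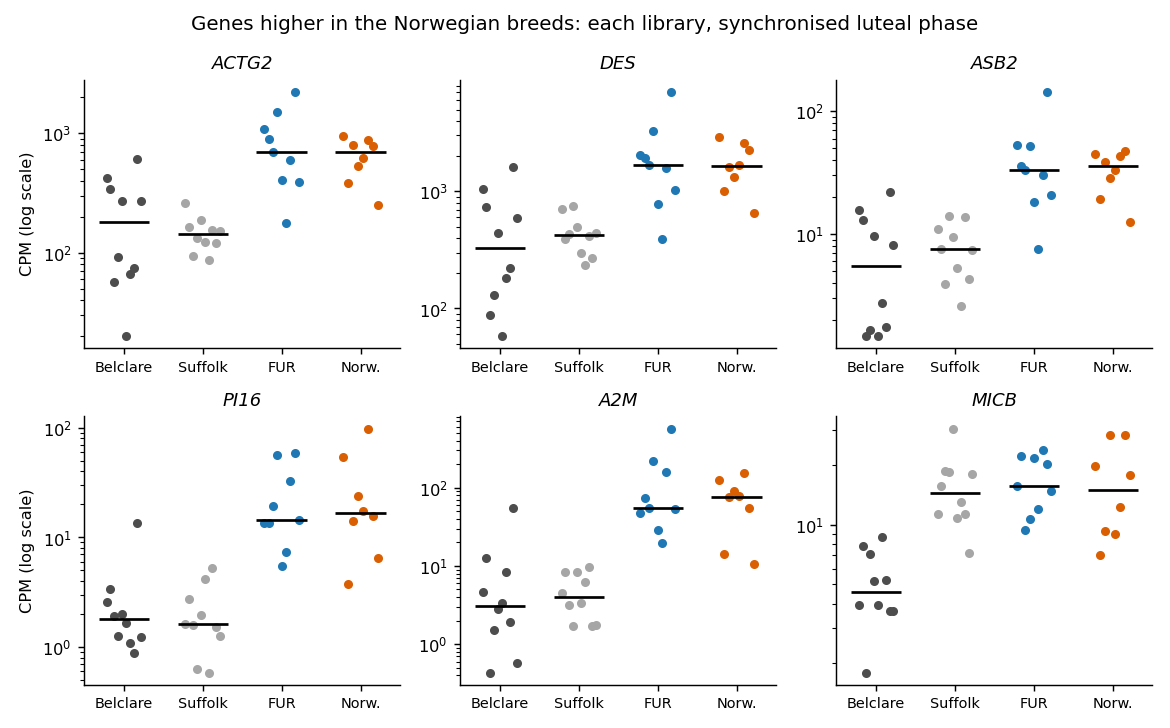
CPM on a log scale (y axis) of ACTG2, DES, ASB2, PI16, A2M and MICB in each luteal library of Belclare, Suffolk, FUR and Norwegian ("Norw."); lines mark medians. FUR and Norwegian ewes sit at like levels in all 6 genes, ACTG2 medians being 698 and 703 CPM, and Suffolk ewes lie with Belclare in every gene but MICB.

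Genes of the extracellular matrix and its turnover moved in both directions. Of 39 tested, 4 rose (10.3%), namely PI16 and 3 identifiers of THBS2, so that 1 gene makes up 3 of the 4. Another 4 fell (10.3%), namely ADAMTS14, MMP15, AGRN and SPON1. The shares of the named genes were 3.26% and 29.4%, and the median log2 fold change of the list was 0.07. PI16 encodes peptidase inhibitor 16, a surface protein known from fibroblasts, and its name too comes from the study's choice of genes higher in Fur. It was at 0.877, 1.79 and 13.4 CPM in Belclare, 5.44, 14.4 and 59.5 in FUR and 3.78, 16.6 and 98.3 in Norwegian ewes. All but 4 of the 17 ewes lay above the highest Belclare ewe, which was ewe 9, and the log2 fold change of 3.16 (SE 0.58, adjusted p = 0.000149) became 3.89 without that ewe. The other fibroblast and pericyte markers did not show this: of 5 tested only PI16 was called, and the summed level of the 5 was 94.4 to 334.9 CPM in Belclare, 156.4 to 354.6 in FUR and 185.8 to 427.2 in Norwegian ewes.

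THBS2, thrombospondin 2, is a matrix protein that restrains vessel growth and shapes collagen fibrils. Its best covered identifier, ENSOARG00000005037, was at 4.58, 9.74 and 16 CPM in Belclare, 8.30, 23.0 and 82.6 in FUR and 7.31, 19.3 and 62.3 in Norwegian ewes. With 13 ewes above every Belclare ewe, its log2 fold change was 1.45 (SE 0.36, adjusted p = 0.00244). The name is carried by 3 identifiers, and how reads were divided among them is uncertain. At the natural follicular phase all 3 were lower in the Norwegian breeds (log2 fold change -0.65 to -0.93, adjusted p 0.00412 to 0.0288). CTSK encodes cathepsin K, a lysosomal protease that cleaves collagen, and was the only one of 46 lysosome genes called higher, against 6 called lower, a share below the 29.4% of the named genes. It was at 35.8, 68.3 and 95.8 CPM in Belclare, 87.8, 117 and 183 in FUR and 69.0, 112 and 185 in Norwegian ewes, with 14 of 17 above every Belclare ewe (log2 fold change 0.85, SE 0.17, adjusted p = 0.000405).

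The matrix genes that fell were changed less. AGRN, the basement membrane proteoglycan agrin, had a log2 fold change of -0.74 (SE 0.14, adjusted p = 0.00019), and 15 of 17 ewes lay below every Belclare ewe. MMP15, a membrane-bound matrix metalloproteinase, had one of -0.82 (SE 0.16, adjusted p = 0.000368). ADAMTS14, a procollagen peptidase, had one of -0.85 (SE 0.32, adjusted p = 0.0345), which missed the threshold without any 1 of Belclare ewes 4, 6 or 7 (adjusted p 0.0934, 0.162 and 0.0575).

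A2M encodes alpha-2-macroglobulin, a broad protease inhibitor of plasma and tissue. It was at 0.433, 3.1 and 54.9 CPM in Belclare, 19.7, 55.6 and 567.5 in FUR and 10.5, 76.9 and 152 in Norwegian ewes. The medians were far apart, while Belclare ewe 9 at 54.9 CPM lay as high as the middle of FUR. The log2 fold change was 3.44 (SE 0.74, adjusted p = 0.000738), or 10.8-fold, and was 4.62 without Belclare ewe 9 and 3.09 without FUR ewe 8. A2M was the only higher gene among 17 of complement, acute phase and plasma proteins (5.88%, against 3.26% of the named genes).

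MICB had the smallest p of all named genes that rose. The study had listed it among its top genes lower in Belclare than in Suffolk at the synchronised follicular phase, so this rank is not independent of that choice. MICB encodes a stress-induced ligand of the receptor NKG2D on natural killer and T cells. Its level was 1.80, 4.55 and 8.64 CPM in Belclare, 9.42, 15.6 and 23.7 in FUR and 7.07, 15.0 and 28.3 in Norwegian ewes. Only 1 Norwegian ewe fell into the Belclare range, and the log2 fold change was 1.70 (SE 0.26, adjusted p = 2.21e-05), or 3.25-fold. Next by p came THPO, thrombopoietin, the growth factor of megakaryocytes, at 0.348, 0.81 and 1.15 CPM in Belclare, 0.794, 2.40 and 3.08 in FUR and 1.70, 2.22 and 3.15 in Norwegian ewes. With 15 of 17 ewes above every Belclare ewe, its log2 fold change was 1.49 (SE 0.24, adjusted p = 3.16e-05).

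NREP, a small protein known from regenerating nerve and wound fibroblasts, was at 1.11, 2.98 and 4.11 CPM in Belclare, 3.94, 7.75 and 8.85 in FUR and 3.97, 5.65 and 12.4 in Norwegian ewes. The ranges overlapped only at their ends, and the log2 fold change was 1.15 (SE 0.20, adjusted p = 9.75e-05). N4BP2L1 rose by 0.67 on the log2 scale (SE 0.14, adjusted p = 0.00053) and GPM6A, a membrane glycoprotein best known from neurons, by 0.65 (SE 0.14, adjusted p = 0.000578). CPT1C, a member of the carnitine palmitoyltransferase family, was the only one of 36 lipid genes to rise (2.78%, near the 3.26% of the named genes). It was at 7.99, 10.9 and 18.6 CPM in Belclare, 11.6, 22.6 and 34.5 in FUR and 13.5, 22 and 37.2 in Norwegian ewes (log2 fold change 0.93, SE 0.20, adjusted p = 0.000666), with 11 ewes above every Belclare ewe.

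In the myeloid list GPNMB and PADI4 rose. GPNMB, a glycoprotein of macrophages and lysosomes, was at 13, 17.9 and 28.7 CPM in Belclare, 23.3, 35.2 and 106 in FUR and 6.20, 45.5 and 84.7 in Norwegian ewes. While 11 ewes lay above every Belclare ewe, 1 Norwegian ewe lay below them all, and the log2 fold change was 1.29 (SE 0.29, adjusted p = 0.00111). PADI4, a neutrophil enzyme that turns arginine residues into citrulline, rose by 1.13 on the log2 scale (SE 0.33, adjusted p = 0.00865).

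The 2 unnamed identifiers of smallest p that rose separated the groups completely. ENSOARG00000020682 was at 78.4, 93.5 and 97.4 CPM in Belclare, 144, 164 and 199 in FUR and 121, 139 and 154 in Norwegian ewes (log2 fold change 0.73, SE 0.06, adjusted p = 2.59e-09). ENSOARG00000022103 was at 1.83, 3.89 and 5.10 CPM in Belclare, 8.85, 18.7 and 22.9 in FUR and 12.6, 16.9 and 27.6 in Norwegian ewes (log2 fold change 2.27, SE 0.18, adjusted p = 4.61e-09). Both were at Belclare levels in the median Suffolk ewe, at 92.7 and 4.94 CPM.

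Of 30 genes of epithelial junctions and keratins, 17 fell (56.7%) and none rose, with a median log2 fold change of -0.73, against 29.4% lower among all named genes and 7.11% among all genes. The members that fell included the junction genes CDH1, OCLN, CLDN3, CLDN4, CLDN23, DSG2 and GJB2. Their summed level was 2768 to 4387 CPM in Belclare, 1131 to 3064 in FUR and 1687 to 3011 in Norwegian ewes, so only the upper ends of the Norwegian breeds reached the Belclare range. With the muscle covariate 3 of the 30 were called.

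OVOL2, a transcription factor that holds cells in the epithelial state, was at 14.8, 22.8 and 36.2 CPM in Belclare, 2.67, 8.17 and 13.3 in FUR and 5.83, 11 and 15.7 in Norwegian ewes. All but 2 of the 17 ewes lay below the lowest Belclare ewe, and the log2 fold change was -1.34 (SE 0.19, adjusted p = 1.1e-05). GJB2 encodes connexin 26, a gap junction channel, and was at 9.04, 14.2 and 37.9 CPM in Belclare, 1.75, 6.07 and 11.4 in FUR and 3.79, 6.20 and 8.72 in Norwegian ewes. Here 16 of 17 ewes lay below every Belclare ewe (log2 fold change -1.57, SE 0.25, adjusted p = 3.59e-05). CLDN23, a claudin of tight junctions, had a log2 fold change of -1.28 (SE 0.37, adjusted p = 0.00702).

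Of 35 transporters of ions and water, 19 fell (54.3%, against 29.4% of the named genes) and none rose, with a median log2 fold change of -0.69. Those that fell included SCNN1A, a subunit of the epithelial sodium channel. SLC13A2, a sodium-coupled carrier of citrate and succinate, was at 33.4, 51.6 and 64.7 CPM in Belclare, 10.4, 24.1 and 37.7 in FUR and 4.10, 16.9 and 28.4 in Norwegian ewes. With 15 of 17 ewes below every Belclare ewe, its log2 fold change was -1.31 (SE 0.22, adjusted p = 6.21e-05). PDZK1IP1, a small membrane protein of epithelia, was at 20.9, 128 and 348 CPM in Belclare, 7.97, 16.1 and 24.7 in FUR and 9.58, 32 and 120 in Norwegian ewes (log2 fold change -2.74, SE 0.42, adjusted p = 2.21e-05). FXYD4, a small membrane protein of the FXYD family, had a log2 fold change of -2.46 (SE 0.65, adjusted p = 0.00371), and of -3.24 without Norwegian ewe 8.

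**Figure D3:**
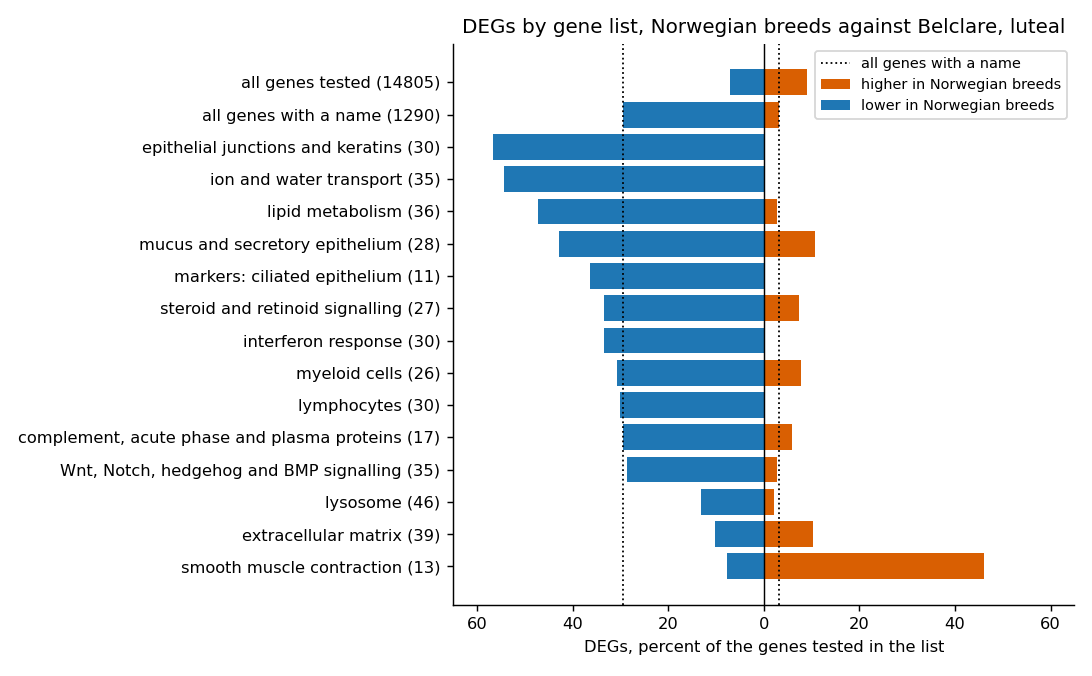
Bars give the percent of tested genes in each list that were DEGs higher (orange, right) or lower (blue, left) in the Norwegian breeds than in Belclare; the number tested is in brackets and dotted lines mark the shares of all named genes, 3.26% and 29.4%. Epithelial junctions (56.7% lower) and ion and water transport (54.3%) lie furthest to the left, and smooth muscle contraction (46.2% higher) furthest to the right.

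Of 28 genes of mucus and secretory epithelium, 12 fell (42.9%) and 3 rose (10.7%), against 29.4% and 3.26% of the named genes, with a median log2 fold change of -0.64. WFDC2, a secreted protein of reproductive tract epithelium, was among the most abundant, at 698, 1119 and 2504 CPM in Belclare, 223, 459 and 1057 in FUR and 97.5, 378 and 1416 in Norwegian ewes. In 15 of 17 ewes it lay below every Belclare ewe (log2 fold change -1.45, SE 0.32, adjusted p = 0.00076). LRP2, the endocytic receptor megalin, was at 6.95, 178 and 376 CPM in Belclare, 10, 23.8 and 85.4 in FUR and 4.31, 13.1 and 55.0 in Norwegian ewes. The lowest Belclare ewe lay within the Norwegian range, and the log2 fold change was -2.89 (SE 0.52, adjusted p = 0.000131), or 7.40-fold lower. The mucin genes MUC1 and MUC16 and the Müllerian transcription factors PAX2 and PAX8 were among the others that fell.

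The gel-forming mucin gene MUC5AC rested on a single ewe. It was at 0.741, 3.77 and 327 CPM in Belclare, 0.837, 1.44 and 6.89 in FUR and 0.65, 2.81 and 8.94 in Norwegian ewes, the highest value being that of Belclare ewe 7. The log2 fold change of -3.63 (SE 0.77, adjusted p = 0.000658) was -0.66 without that ewe (adjusted p = 0.237). The members that rose act in glycosylation and protein folding. GALNT15 starts mucin-type O-glycosylation and was at 0.433, 1.35 and 4.48 CPM in Belclare, 0.984, 2.56 and 27 in FUR and 1.18, 3.43 and 6.23 in Norwegian ewes, with broad overlap (log2 fold change 1.5, SE 0.46, adjusted p = 0.0117). Its log2 fold change was 1.10 without FUR ewe 8. ST6GAL2, a sialyltransferase, had a log2 fold change of 1.15 (SE 0.32, adjusted p = 0.00506), and CLGN, a chaperone of the endoplasmic reticulum, one of 0.92 (SE 0.35, adjusted p = 0.0365). Both were among the study's top genes between Suffolk and Belclare, ST6GAL2 as lower and CLGN as higher in Belclare. The share of this list that rose is therefore not free of the study's choice. The call of CLGN was lost without any 1 of Belclare ewes 2, 4, 6, 8 or 10, FUR ewe 8 or Norwegian ewes 2 or 5 (adjusted p 0.0521 to 0.0646).

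Of 36 lipid genes 17 fell (47.2%, against 29.4% of the named genes). ALOX12, an arachidonate lipoxygenase, was at 39.8, 125 and 288 CPM in Belclare, 6.44, 13.7 and 45.5 in FUR and 12.4, 29.1 and 125 in Norwegian ewes. FUR stood almost wholly below Belclare, whereas the highest Norwegian ewe was at the Belclare median, and the log2 fold change was -2.27 (SE 0.38, adjusted p = 5.27e-05). ELOVL2, which lengthens polyunsaturated fatty acids, had a log2 fold change of -3.49 (SE 0.60, adjusted p = 8.14e-05), SMPDL3B, a sphingomyelinase-like enzyme, one of -2.86 (SE 0.57, adjusted p = 0.000312) and ATP8A2, a phospholipid flippase, one of -1.95 (SE 0.37, adjusted p = 0.000205).

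NPC1, which carries cholesterol out of the lysosome, was at 155, 284 and 408 CPM in Belclare, 75.4, 108 and 208 in FUR and 44.2, 111 and 165 in Norwegian ewes, with 13 of 17 below every Belclare ewe (log2 fold change -1.28, SE 0.22, adjusted p = 6.14e-05). NPC1 counted among the 6 lysosome genes that fell, together with the calcium channels MCOLN2 and MCOLN3, the acid phosphatases ACP2 and ACP5, and SORT1.

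Of 27 genes of steroid and retinoid signalling, 9 fell (33.3%, near the 29.4% of the named genes) and 2 rose (7.41%). VDR, the vitamin D receptor, was at 33.3, 49.3 and 74.9 CPM in Belclare, 18.3, 25.5 and 34.9 in FUR and 7.76, 28.2 and 33.2 in Norwegian ewes. Only 1 FUR ewe reached the lowest Belclare ewe, and the log2 fold change was -1.02 (SE 0.18, adjusted p = 9.89e-05). ESR2, the oestrogen receptor beta gene, was at 2.55, 21.0 and 46.9 CPM in Belclare, 2.62, 4.30 and 15.4 in FUR and 0.494, 4.23 and 14.4 in Norwegian ewes. The Belclare ewes were widely spread and the ranges overlapped, with a log2 fold change of -1.84 (SE 0.44, adjusted p = 0.00183). FKBP5, a glucocorticoid- and progesterone-induced co-chaperone, was also called lower. PTGS1, cyclooxygenase 1 of prostaglandin synthesis, had a log2 fold change of -0.77 (SE 0.29, adjusted p = 0.0342) and lost its call without any 1 of Belclare ewes 3, 6, 9 or 10 (adjusted p 0.0554 to 0.0943).

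The steroid genes that rose were HSD11B1 and GREB1. HSD11B1, the enzyme that regenerates active cortisol within tissues, was at 0.52, 1.25 and 5.56 CPM in Belclare, 2.61, 4.10 and 7.25 in FUR and 1.6, 2.59 and 7.62 in Norwegian ewes (log2 fold change 1.19, SE 0.34, adjusted p = 0.00668). Its ranges overlapped, also without Belclare ewe 9, since the next Belclare ewe was at 2.76 CPM. GREB1 was at 13.8, 23.6 and 41.1 CPM in Belclare, 20.3, 35.6 and 84.7 in FUR and 5.93, 34.2 and 146 in Norwegian ewes. Norwegian ewes lay both above and below the whole Belclare range, and the log2 fold change of 0.99 (SE 0.35, adjusted p = 0.0259) was 0.79 without Norwegian ewe 1 (adjusted p = 0.0513).

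None of 30 lymphocyte genes rose and 9 fell (30.0%), close to the share of 29.4% among all named genes. The heavy chain identifier ENSOARG00000009143, named IGHG3, was at 440, 1769 and 48410 CPM in Belclare, 70.6, 535 and 1485 in FUR and 79.5, 576 and 2518 in Norwegian ewes. A second identifier of that name, ENSOARG00000000857, was at 142, 548 and 15960 CPM in Belclare, 16.1, 115 and 395 in FUR and 19.8, 182 and 778 in Norwegian ewes, and reads of near-identical constant regions cannot be assigned between them with certainty. Their log2 fold changes were -3.36 (SE 0.69, adjusted p = 0.000435) and -3.47 (SE 0.71, adjusted p = 0.000456), and -2.04 (adjusted p = 0.00577) and -2.03 (adjusted p = 0.00711) without Belclare ewe 7. IGHE, the heavy chain of immunoglobulin E, had a log2 fold change of -3.63 (SE 0.66, adjusted p = 0.000146). CD27, a receptor of memory B and T cells, had one of -1.46 (SE 0.45, adjusted p = 0.0122), which was -0.69 without Belclare ewe 7 (adjusted p = 0.149).

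In the myeloid list 8 of 26 fell (30.8%, near the 29.4% of the named genes) beside the 2 that rose (7.69%). FLT3, a receptor of dendritic cell precursors, was at 0.557, 7.59 and 18.3 CPM in Belclare, 0.109, 0.737 and 1.54 in FUR and 0.30, 0.763 and 1.70 in Norwegian ewes. The medians lay far apart although the lowest Belclare ewe shared the Norwegian range (log2 fold change -2.89, SE 0.46, adjusted p = 3.03e-05). The general leucocyte genes ITGB2 and LCP1 were also among those that fell. CD177, a neutrophil surface protein, had a log2 fold change of -0.92 (SE 0.33, adjusted p = 0.0295), lost without Belclare ewe 1 (adjusted p = 0.0915) or 3 (adjusted p = 0.0635).

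Of 30 interferon-response genes, 10 fell (33.3%, near the 29.4% of the named genes) and none rose, with a median log2 fold change of -0.51. LY6E was at 27, 70.5 and 138 CPM in Belclare, 12.9, 17.6 and 33.3 in FUR and 13.4, 24.0 and 47.7 in Norwegian ewes, with 12 of 17 below every Belclare ewe (log2 fold change -1.62, SE 0.26, adjusted p = 4.45e-05). RNF213, a large ubiquitin ligase, was at 143, 349 and 728 CPM in Belclare, 76.3, 115 and 313 in FUR and 97.4, 171 and 313 in Norwegian ewes (log2 fold change -1.25, SE 0.25, adjusted p = 0.000346). The ubiquitin-like modifier ISG15 was at 8.91, 13.5 and 122 CPM in Belclare, 1.44, 5.16 and 28.5 in FUR and 1.79, 10.1 and 24.3 in Norwegian ewes. Its highest value was that of Belclare ewe 4, and the log2 fold change of -1.47 (SE 0.47, adjusted p = 0.014) was -0.80 without it (adjusted p = 0.132). Without that ewe 4 of the 30 genes were called, and without Belclare ewe 6 there were 6.

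Of 17 complement and acute phase genes 5 fell, C3 being counted at more than 1 identifier. That share is equal to the 29.4% of the named genes. With A2M 6 of the 17 were called, against 2 without Belclare ewe 7. Complement C3 at ENSOARG00000000751 was at 69.8, 142 and 984 CPM in Belclare, 24.7, 71.7 and 138 in FUR and 53.4, 97.5 and 205 in Norwegian ewes. Its log2 fold change of -1.20 (SE 0.37, adjusted p = 0.0113) was -0.48 without ewe 7 (adjusted p = 0.163). The acute phase gene ORM2 had a log2 fold change of -2.59 (SE 0.69, adjusted p = 0.00402) and of -0.25 without ewe 7 (adjusted p = 0.671), whereas SAA1, serum amyloid A, had one of -1.65 (SE 0.42, adjusted p = 0.00304) and kept its call without that ewe, at -1.46.

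Apart from COX-1, described further on, the named genes of smallest p that fell had log2 fold changes between -0.59 (ZNF710) and -1.09 (TRAK1). Among named genes 16 lay lower in every Norwegian-breed ewe than in every Belclare ewe (1.24%), against 0.351% of all genes, and no named gene lay higher in every ewe. DYNC1H1, the heavy chain of cytoplasmic dynein, was at 846, 957 and 1144 CPM in Belclare, 547, 579 and 759 in FUR and 516, 630 and 688 in Norwegian ewes. The groups did not overlap (log2 fold change -0.66, SE 0.06, adjusted p = 1e-08). POLR2A, the largest subunit of RNA polymerase II, was at 174, 218 and 316 CPM in Belclare, 115, 146 and 153 in FUR and 120, 154 and 162 in Norwegian ewes, again without overlap (log2 fold change -0.65, SE 0.08, adjusted p = 1.15e-06). PLXNA1, a semaphorin receptor, was at 40.8, 45.5 and 56.6 CPM in Belclare, 23.7, 26.5 and 31.6 in FUR and 22.5, 31.9 and 38.5 in Norwegian ewes (log2 fold change -0.67, SE 0.07, adjusted p = 2e-07).

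TRAPPC12, of a vesicle tethering complex, was at 48.5, 68.7 and 83.0 CPM in Belclare, 30.3, 34.2 and 41.6 in FUR and 33.8, 43.6 and 50.8 in Norwegian ewes. A single Norwegian ewe reached the lowest Belclare ewe (log2 fold change -0.78, SE 0.09, adjusted p = 4.4e-07). TRAK1, an adaptor of mitochondrial transport, had a log2 fold change of -1.09 (SE 0.13, adjusted p = 8.69e-07). DEF8 and ZNF710 had log2 fold changes of -0.62 (SE 0.06, adjusted p = 1.85e-07) and -0.59 (SE 0.07, adjusted p = 5.28e-07), close to the fold threshold, which DEF8 missed without Belclare ewe 7 (-0.58) and ZNF710 without any 1 of Belclare ewes 3, 4, 6 or 7, FUR ewe 4 or Norwegian ewes 4 or 6 (-0.55 to -0.58). The unnamed ENSOARG00000010202 was at 343, 395 and 467 CPM in Belclare, 229, 248 and 294 in FUR and 222, 262 and 283 in Norwegian ewes (log2 fold change -0.65, SE 0.05, adjusted p = 3.37e-09). ENSOARG00000018233 was at 4.95, 9.71 and 15.0 CPM in Belclare, 2.68, 3.17 and 4.43 in FUR and 2.46, 4.07 and 4.95 in Norwegian ewes (log2 fold change -1.42, SE 0.15, adjusted p = 2.15e-07).

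Signalling ligands and receptors of the Wnt, Notch, hedgehog and BMP pathways fell in 10 of 35 cases (28.6%, near the 29.4% of the named genes) and rose in 1 (2.86%), TBX3 (log2 fold change 0.70, SE 0.21, adjusted p = 0.00956), a transcription factor of organ patterning. The Wnt receptor FZD5 had a log2 fold change of -1.61 (SE 0.29, adjusted p = 0.000113). IHH, Indian hedgehog, which carries the progesterone signal from epithelium to stroma in the uterus, had one of -1.39 (SE 0.40, adjusted p = 0.00771). NRARP, a Notch target that dampens the pathway, had one of -1.15 (SE 0.27, adjusted p = 0.00147), and the Notch ligand DLL4 and the ligands WNT4 and WNT5A were also called lower.

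Marker lists of other cell types gave a mixed picture. Of 11 genes of ciliated epithelium 4 fell (36.4%, against 29.4% of the named genes) and none rose, with a summed level of 677.8 to 1225 CPM in Belclare, 354.9 to 710.5 in FUR and 370.5 to 786.9 in Norwegian ewes, and without Belclare ewe 3 only 1 of the 11 was called. Of 6 endothelial genes ANGPT2 and CLEC1A rose while SOX17 and VWF fell. VWF, the von Willebrand factor of endothelial cells, had a log2 fold change of -0.64 (SE 0.10, adjusted p = 2.21e-05) and lay below every Belclare ewe in 16 of 17 ewes. SNAP25 rose and NRCAM fell among 5 nerve and glia genes, the call of NRCAM being lost without any 1 of Belclare ewes 2, 4, 6 or 10, FUR ewe 7 or Norwegian ewes 1 or 3. SPTB fell among 4 red cell genes (log2 fold change -1.49, SE 0.39, adjusted p = 0.00344). The single adipocyte and skeletal muscle genes tested, CIDEA and CAPN3, had log2 fold changes of 0.49 (SE 0.20, adjusted p = 0.057) and -0.15 (SE 0.31, adjusted p = 0.714). None of 4 circadian genes was called, and of 4 immediate early and stress genes only ERN1, a sensor of unfolded protein in the endoplasmic reticulum, fell (log2 fold change -0.78, SE 0.14, adjusted p = 9.59e-05). What part the mixture of cell types had in the breed differences was not tested.

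**Figure D4:**
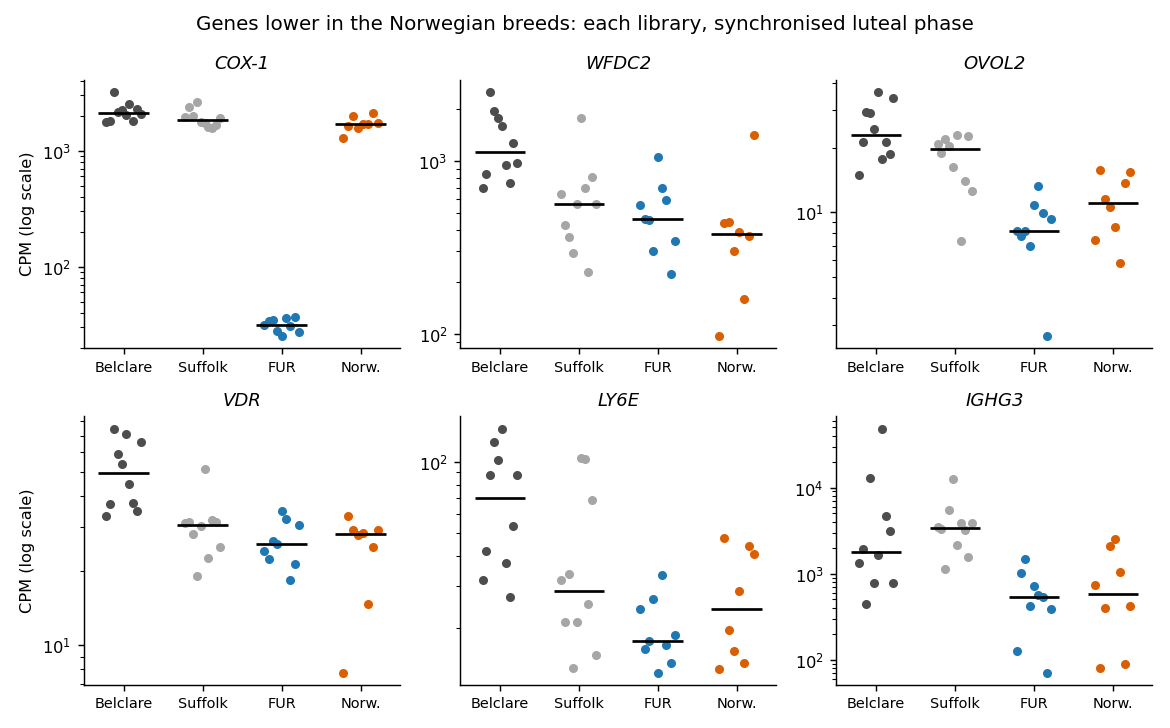
CPM on a log scale (y axis) of COX-1, WFDC2, OVOL2, VDR, LY6E and IGHG3 (ENSOARG00000009143) in each luteal library of Belclare, Suffolk, FUR and Norwegian ("Norw."); lines mark medians. COX-1 is low in FUR alone (25.3 to 37.0 CPM), and in the other 5 genes both Norwegian breeds lie at lower medians than Belclare.

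The named gene of smallest p in the whole comparison differed in a single Norwegian breed. COX-1, named in the study as the mitochondrially encoded cytochrome c oxidase I, the core of the last complex of the respiratory chain, was at 1757, 2108 and 3207 CPM in Belclare, 25.3, 31.7 and 37.0 in FUR and 1295, 1694 and 2099 in Norwegian ewes. All FUR ewes were far below every other ewe, whereas Norwegian and Belclare ewes overlapped. FUR differed from Belclare by a log2 fold change of -6.11 (SE 0.13, adjusted p = 1.49e-22), Norwegian from Belclare by -0.36 (SE 0.11, adjusted p = 0.0174), which is under the fold threshold, and Norwegian from FUR by 5.75 (SE 0.13, adjusted p = 6.41e-22). The other named mitochondrial gene, MT-ND6, a subunit of complex I, was not called (log2 fold change of the Norwegian breeds 0.16, SE 0.19, adjusted p = 0.502). Whether FUR ewes have less COX-1 RNA or fewer of their COX-1 reads were assigned to this identifier was not tested.

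Few genes were called between the 2 Norwegian breeds, and with 9 FUR and 8 Norwegian ewes smaller differences could be missed. Only 8 genes were DEGs between Norwegian and FUR (0.054%), 3 higher in Norwegian (0.0203%) and 5 higher in FUR (0.0338%), although 1750 genes had an unadjusted p under 0.05 and DESeq2's Wald test called 62. There were 4 without FUR ewe 1 and 16 without Norwegian ewe 2. Besides COX-1 the genes higher in Norwegian were ENSOARG00000005859, at a mean of 20.9 ± 4.01 CPM against 13.8 ± 1.84 in FUR (SD, n = 8 and 9), and ENSOARG00000020142, at 1.05 ± 1.38 CPM against 0.00606 ± 0.0182. Higher in FUR were, by smallest p, ENSOARG00000017337, at 24.5 ± 5.84 CPM against 13.9 ± 2.14 in Norwegian and 11.8 ± 1.31 in Belclare (SD, n = 10), and ENSOARG00000005851, at 1.57 ± 0.476 CPM against 0.104 ± 0.131 in Norwegian and 1.27 ± 0.862 in Belclare.

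Taken one breed at a time, FUR had 2485 DEGs against Belclare (16.8%), 1390 higher (9.39%) and 1095 lower (7.4%), and Norwegian had 1854 (12.5%), 1066 higher (7.2%) and 788 lower (5.32%). Both contrasts use the same Belclare ewes, so the second call of a gene is not independent of the first. Called in both were 812 higher and 556 lower genes. For ACTG2 the log2 fold change was 1.98 (SE 0.50) in FUR and 1.54 (SE 0.51) in Norwegian ewes, for PI16 3.04 (SE 0.61) and 3.28 (SE 0.62), and for MICB 1.71 (SE 0.28) and 1.69 (SE 0.29). For ALOX12 it was -2.82 (SE 0.48) in FUR and -1.73 (SE 0.48) in Norwegian ewes, and for PDZK1IP1 -3.36 (SE 0.54) and -2.12 (SE 0.54). Neither of the last genes was a DEG between Norwegian and FUR. In the interferon list 14 of 30 genes were lower in FUR and 3 in Norwegian ewes. Of all 1290 named genes, 421 were lower in FUR and 292 in Norwegian ewes. None of the 30 was a DEG between these breeds.

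Some genes that differed between the Norwegian breeds and Belclare were at the Norwegian level in Suffolk, the other Irish breed, of which 10 luteal ewes were sequenced. MICB was at 7.18, 14.4 and 30.5 CPM in Suffolk, NPC1 at 80.9, 105 and 209, LRP2 at 2.30, 23.2 and 173 and VDR at 19.0, 30.7 and 51.4. Other genes in Suffolk were at the Belclare level, among them ACTG2 (86.2, 143 and 259 CPM), A2M (1.73, 3.98 and 9.69), PI16 (0.586, 1.61 and 5.31), PLXNA1 (26.3, 51.1 and 70.7) and COX-1 (1574, 1836 and 2652). These Suffolk levels are set side by side without a test.

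The same contrast was fitted at both follicular phases, in other ewes of the same breeds, over the same 14805 genes. The Norwegian breeds had 2250 DEGs against Belclare at the synchronised follicular phase (15.2%, with 7.14% of genes higher and 8.06% lower) and 2300 at the natural follicular phase (15.5%, with 9.14% higher and 6.4% lower). Of the 1327 genes higher in the luteal phase, 581 were also higher at the synchronised follicular phase (43.8% of the luteal and 55.0% of the follicular list) and 865 at the natural follicular phase (65.2% and 63.9%). Of the 1053 lower genes, 491 (46.6% and 41.2%) and 450 (42.7% and 47.5%) were lower there. In all 3 states 484 genes were higher and 298 lower.

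Of the 6 raised muscle genes, ASB2, ACTG2, PNCK, PCP4 and POPDC2 were called higher in every state, whereas DES missed the threshold at the synchronised follicular phase (log2 fold change 1.74, SE 0.72, adjusted p = 0.0531). The study had chosen these genes on Norwegian-breed ewes of that phase. COX-1 was called lower in every state for the mean of the 2 Norwegian breeds. In the luteal phase that call rested on FUR, and the single breeds at the follicular phases are not reported here. ASB2 had a log2 fold change of 2.36 (SE 0.57, adjusted p = 0.00193) at the synchronised and 2.43 (SE 0.40, adjusted p = 3.47e-05) at the natural follicular phase, ACTG2 one of 1.79 (SE 0.69, adjusted p = 0.0374) and 2.12 (SE 0.59, adjusted p = 0.00544), and PNCK one of 3.02 (SE 0.72, adjusted p = 0.00166) and 2.87 (SE 0.63, adjusted p = 0.000751). COX-1 had one of -3.35 (SE 0.08, adjusted p = 4.78e-22) and -3.57 (SE 0.35, adjusted p = 1.82e-07). OVOL2 was lower in both, by -1.02 (SE 0.20, adjusted p = 0.000304) and -0.89 (SE 0.14, adjusted p = 2.14e-05).

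The breed difference itself changed between the synchronised phases in 234 genes (1.58%), as tested by the interaction of breed group and phase, with 147 more positive (0.993%) and 87 more negative (0.588%) in the luteal phase. Of the luteal DEGs, 60 higher and 48 lower genes were among them. In 10 of the 234 the Norwegian breeds were called on opposite sides of Belclare in the 2 phases. Of the named genes 64 were among the 234 (4.96%), and 60 of these were more positive in the luteal phase. The names favour this direction, because most were given to genes low in Fur at the follicular phase that the interaction subtracts.

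Among named genes the smallest interaction p belonged to KLF11, a transcription factor of the Krüppel-like family. In the luteal phase it was at 7.23, 10.9 and 16.1 CPM in Belclare, 7.20, 11.4 and 26.1 in FUR and 12.8, 18.0 and 31.4 in Norwegian ewes, with a log2 fold change of 0.58 (SE 0.17, adjusted p = 0.00956), just under the fold threshold. At the synchronised follicular phase it was lower in the Norwegian breeds (-1.12, SE 0.23, adjusted p = 0.000355), and the interaction was 1.69 (SE 0.30, adjusted p = 0.00143). CTSK followed with an interaction of 1.25 (SE 0.22, adjusted p = 0.00143) and a follicular log2 fold change of -0.40 (SE 0.13, adjusted p = 0.0161). TMEM86A, a lysoplasmalogenase, was at 3.22, 5.6 and 7.77 CPM in luteal Belclare, 4.00, 6.16 and 14.0 in FUR and 4.71, 6.64 and 8.70 in Norwegian ewes. Its luteal levels overlapped (log2 fold change 0.26, SE 0.16, adjusted p = 0.197), its synchronised follicular log2 fold change was -0.81 (SE 0.13, adjusted p = 2.72e-05) and the interaction was 1.06 (SE 0.21, adjusted p = 0.00456). At the natural follicular phase KLF11 (log2 fold change 0.31, adjusted p = 0.334), CTSK (0.23, adjusted p = 0.253) and TMEM86A (-0.14, adjusted p = 0.521) were not called.

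A2M, GREB1 and GPNMB were higher in the Norwegian breeds in the luteal phase but not at the synchronised follicular phase. A2M had a follicular log2 fold change of -0.41 (SE 0.45, adjusted p = 0.467) and an interaction of 3.87 (SE 0.83, adjusted p = 0.00978). GREB1 was lower in the Norwegian breeds at the synchronised (-1.16, SE 0.28, adjusted p = 0.00169) and the natural follicular phase (-1.09, SE 0.29, adjusted p = 0.00452), with an interaction of 2.14 (SE 0.46, adjusted p = 0.00978). GPNMB had a follicular log2 fold change of -1.07 (SE 0.42, adjusted p = 0.0422) and an interaction of 2.35 (SE 0.54, adjusted p = 0.0145). For CPT1A, the rate-limiting enzyme of mitochondrial fatty acid oxidation, the difference was seen at the synchronised follicular phase: the log2 fold change was -1.73 (SE 0.19, adjusted p = 2.23e-07) there and -0.25 (SE 0.23, adjusted p = 0.389) in the luteal phase, with an interaction of 1.47 (SE 0.31, adjusted p = 0.00931). At the natural follicular phase CPT1A (log2 fold change -0.43, adjusted p = 0.16), A2M (0.26, adjusted p = 0.728) and GPNMB (0.20, adjusted p = 0.778) were not called.

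On the negative side, ALOX12 and PDZK1IP1 were lower in the Norwegian breeds by more in the luteal phase. ALOX12 had a follicular log2 fold change of -0.46 (SE 0.23, adjusted p = 0.107) and an interaction of -1.81 (SE 0.46, adjusted p = 0.0264), and PDZK1IP1 one of -0.69 (SE 0.26, adjusted p = 0.0357) and an interaction of -2.06 (SE 0.52, adjusted p = 0.0234). The IGHG3 identifiers had interactions of -3.37 (adjusted p = 0.0396) and -3.42 (adjusted p = 0.0424), which were lost without Belclare luteal ewe 7 and FUR luteal ewe 8 (adjusted p 0.163 and 0.193). Without these ewes 260 interaction DEGs were found, 187 of them among the 234.

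**Figure D5:**
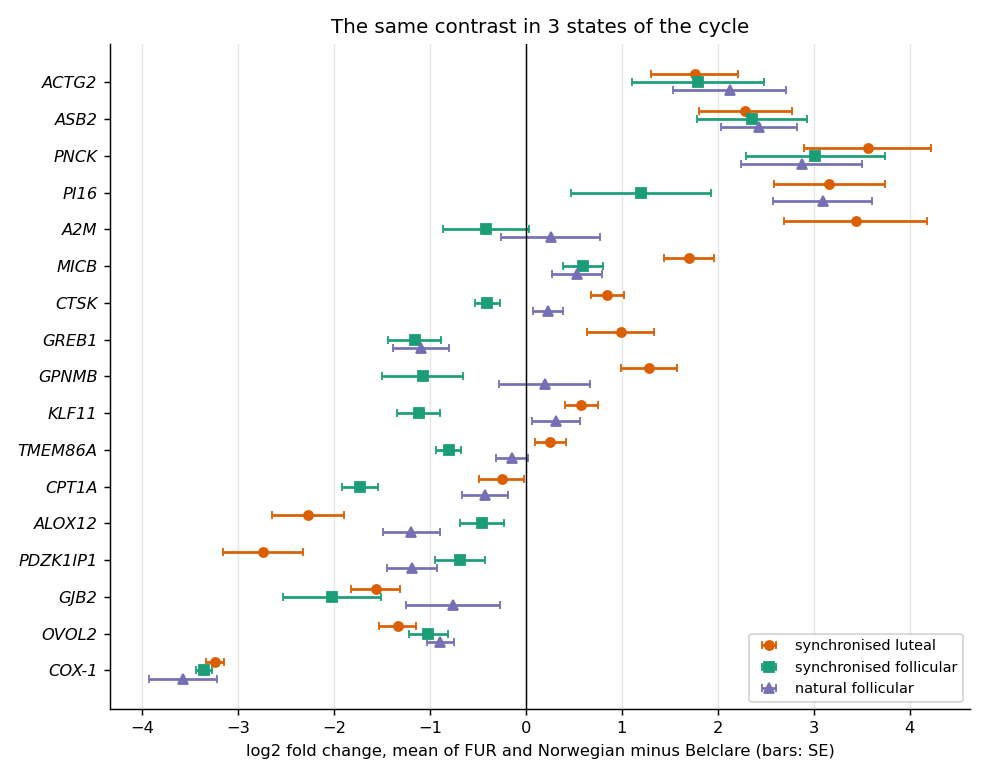
Log2 fold change of the mean of FUR and Norwegian minus Belclare (x axis, bars are SE) for 17 named genes at the synchronised luteal, synchronised follicular and natural follicular phase. ACTG2, ASB2, PNCK, OVOL2 and COX-1 keep their side in all 3 states, whereas GREB1 lies at 0.99 in the luteal phase and at -1.16 and -1.09 in the follicular phases. The luteal mean of COX-1 rests on FUR.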

How the data were processed

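Cervical polyA RNA was sequenced from stranded libraries, 1 per ewe. The authors trimmed reads with BBDuk, aligned them to Oar_v3.1 with STAR 2.6.1b, and counted uniquely mapped pairs on Ensembl genes with featureCounts of Subread 1.6.3; whether counting used the strand is not given in the sources used here. The deposited values are these raw counts for 27054 identifiers, without normalization.

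Groups came from the labels. Of these, 14805 genes reached 1 CPM in 10 or more of the 27 libraries and were tested. Belclare, FUR and Norwegian were fitted together with edgeR 4.0.16 in R 4.3.3 (TMM, quasi-likelihood F test), the Norwegian breeds being the unweighted mean of FUR and Norwegian. Benjamini-Hochberg adjustment ran over all genes tested, and DEGs passed an adjusted p of 0.05 and a fold change of 1.5. The SE is the log2 fold change divided by the square root of F. P-values measure the spread between ewes. Follicular ewes were fitted separately over the same genes, and both synchronised phases together for the interaction. The tests were checked on simulated counts first. CPM use TMM sizes over all 114 libraries with a breed and state; 1 library with conflicting labels was left out. At 13758675 counts or more per library, a gene at 1 CPM rests on few reads.

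Names for 1352 identifiers were taken from the study's supplementary tables, and no coordinates or sequences are given. The lists and the contrast were chosen with earlier results of these data known. Named in the text are the 8 DEGs with a name that ranked first by p among those higher and among those lower, up to 3 DEGs of largest fold change per list and direction, the genes the study names, the 3 of smallest p in each direction of the single-breed and interaction contrasts, the 2 unnamed identifiers of smallest p in each direction, and the most abundant markers; further list members are named without values, a few genes that the rule names are not reported here, and the identifiers between Norwegian and FUR were chosen after their values were seen. Alternatives were DESeq2 1.42.0 size factors and Wald test, other filters and thresholds, the replicate number as a block, a covariate from ACTG2 and DES, Suffolk added, the Norwegian breeds pooled, and each library left out; leaving out Belclare 7 and FUR 8 together was added after the data were seen.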

Additional observations from a re-analysis of the deposited data

Results flagged for a closer look

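Among 48 genes, 144 groups of 8 to 10 ewes were searched for a highest or lowest ewe standing apart by Dixon's test on CPM without a log scale. Chance alone flags about 1 of 20 groups only if values are normally distributed, which CPM need not be. In 29 groups an ewe was flagged, always the highest. Whether a skewed spread of CPM accounts for this was not tested. The same search over the other named genes flagged further highest ewes and also some lowest ones. These were MMP15 in FUR ewe 8, SMCR8 in FUR ewe 1 and CIDEA in Belclare ewe 3. Belclare ewe 9 stood apart with 54.9 CPM of A2M, 1.70 of PNCK, 15.0 of PCP4, 5.56 of HSD11B1, 13.4 of PI16, 4.48 of GALNT15 and 3.06 of POPDC2. Belclare ewe 7 did so with 983.9 CPM of C3 (ENSOARG00000000751), 15960 and 48410 of the IGHG3 identifiers ENSOARG00000000857 and ENSOARG00000009143 and 327 of MUC5AC, and Belclare ewe 4 with 122 CPM of ISG15 and 18.3 of FLT3.

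FUR ewe 8 stood apart with 567.5 CPM of A2M, 759 of DYNC1H1, 14.0 of TMEM86A, 106 of GPNMB, 144 of ASB2, 27 of GALNT15 and 7065 of DES. FUR ewe 6 did so with 313 CPM of RNF213 and 28.5 of ISG15, FUR ewe 4 with 85.4 of LRP2 and FUR ewe 9 with 6.89 of MUC5AC. Norwegian ewe 8 stood apart with 120 CPM of PDZK1IP1 and 1416 of WFDC2, Norwegian ewe 1 with 125 of ALOX12, Norwegian ewe 7 with 38.5 of PCP4 and Norwegian ewe 6 with 8.96 of POPDC2.

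The 2 Norwegian breeds differed from each other in 8 genes, with COX-1 at a log2 fold change of 5.75 in Norwegian against FUR. The difference of the Norwegian breeds from Belclare changed between the synchronised luteal and follicular phases in 234 genes by the interaction test. The interaction was positive for KLF11 (1.69), CTSK (1.25), TMEM86A (1.06), CPT1C (1.30), CPT1A (1.47), A2M (3.87), GREB1 (2.14), GALNT15 (2.40), GPNMB (2.35), N4BP2L1 (1.24), NREP (1.17), PADI4 (1.99), MICB (1.10), ST6GAL2 (1.31), MT-ND6 (0.86) and the THBS2 identifiers ENSOARG00000000300 (1.65) and ENSOARG00000005037 (1.65). It was negative for ALOX12 (-1.81), PDZK1IP1 (-2.06) and the IGHG3 identifiers ENSOARG00000000857 (-3.42) and ENSOARG00000009143 (-3.37). Without Belclare luteal ewe 7 and FUR luteal ewe 8 together, the interactions of both IGHG3 and both THBS2 identifiers, MT-ND6 and ST6GAL2 had an adjusted p above the threshold, at 0.0501 to 0.193. The other interactions listed kept their call without these libraries.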

How the results depend on the processing

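The number of DEGs between the Norwegian breeds and Belclare stayed within 1.5 times of 2380 with DESeq2 size factors (2407), its Wald test (2506), no filter (3031), at least 8 libraries (2467), Suffolk added (2373), the Norwegian breeds pooled (2384) and the replicate block (1966). Leaving out 1 ewe gave 2050 to 2663, for FUR 2096 to 2801, for Norwegian 1360 to 2242 and for Norwegian against FUR 4 to 16.

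Without a fold threshold there were 6103 genes, 5687 for FUR, 4096 for Norwegian, 16 for Norwegian against FUR, 6241 and 5316 at the synchronised and natural follicular phases and 381 for the interaction. A test against the 1.5-fold threshold (glmTreat) left 403, 418, 78 and 2 in the first 4 contrasts. The muscle covariate left 460, 668 for FUR and 241 for Norwegian, and turned the log2 fold changes of ADAMTS14 to 0.16 (adjusted p = 0.827), ACTG2, from which the covariate was made, to -0.052 (adjusted p = 0.753) and GALNT15 to -0.18 (adjusted p = 0.855). Norwegian against FUR gave 62 by the Wald test, 5 with Suffolk added and 15 without Belclare 7 and FUR 8; the interaction gave 384 by the Wald test. The cause of these shifts was not tested.

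The replicate numbers of the titles are shared by different ewes. Over 17 same-numbered pairs of a Belclare with a FUR or Norwegian ewe, the correlation of deviations had a median of 0.004 (lowest -0.337, highest 0.403). It exceeded 0.1 in 4 pairs. FUR ewes were not set against Norwegian ewes by number, and whether the numbers mark a shared batch was not tested. With the replicate block 74 of 90 named calls remained. The block gave 2021 DEGs for FUR, 1241 for Norwegian, 3 for Norwegian against FUR, 2507 and 2181 at the follicular phases and 133 for the interaction. Of the same 90 calls, 90 remained with size factors, 88 with the Wald test (ORM2 and MUC5AC were lost) and 78 without Belclare 7 and FUR 8. Of these calls, SMCR8 was lost in 11 of the 27 fits without 1 ewe, CLGN in 8 and NRCAM and ZNF710 in 7. Depth limits genes near 1 CPM, such as PNCK and ST6GAL2.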
